A study of Mus with 3 samples.

Results

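Entpd1, Nt5e, Cd38, Ada and Adora2a, 5 of the 32285 genes in the deposited table, were followed in the cells of MC38 tumors from WT mice, from RARα-KO mice and from RARα-TG mice. They were taken by name, as genes that handle adenosine and NAD at or near the cell surface, and all 5 were found in the table. Cells release ATP and NAD into inflamed tissue, and enzymes on the cell surface break both of them down. Entpd1 (CD39) strips phosphates from ATP and ADP to leave AMP, and Nt5e (CD73) turns that AMP into adenosine. Cd38 cleaves NAD, Ada converts adenosine to inosine, and Adora2a encodes a receptor that answers adenosine with a rise in cAMP, which restrains T cells. Regulatory T cells are known for CD39 and CD73, and Cd38 is a textbook target of retinoic acid, the ligand of RARα.

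MC38 is a colon cancer line of the mouse, and the tumors were taken on day 16. In RARα-KO mice a Cre driven by the distal Lck promoter removes part of Rara from T cells, while macrophages and MC38 cells keep the gene. RARα-TG mice carry Rara under the CD2 promoter, and the study names more than 1 control strain without giving the one used for the WT tumors. For each genotype 30000 sorted CD45.2+ CD3+ T cells and 10000 unsorted tumor cells were marked with a hashtag antibody, and the 3 genotypes were pooled into 1 library, so all of them share the same free RNA. The number of mice was not given, and the labels also name spleen and activated naive CD8 T cells, which goes against the tumor protocol followed here. Each genotype is therefore 1 sample, no difference between genotypes has a replicate check, and the 95% intervals given here cover counting error only.

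The library held 46394322 gene UMIs, each a counted RNA molecule, and 4925 cells with 1 hashtag were kept: 1927 from WT, 2103 from RARα-KO and 895 from RARα-TG. CPM, the unit used here, is the number of UMIs of a gene in 1000000 gene UMIs of a class. CD8 T cells numbered 842, 1174 and 113 in that order of genotypes, and CD4 T cells without a Foxp3 UMI numbered 95, 166 and 111. CD4 T cells with a Foxp3 UMI numbered 120, 79 and 150, macrophages 77, 127 and 35. The non-immune cluster held 273, 128 and 19 cells. Cald1 and Tpm1 were read in 98.8% of its cells, but Krt8, Krt18, Krt7, Krt19 and Cdkn2a in 0.714% or fewer, and Sparc and Col3a1 in 99.8% and 91.9%. MC38 cells could not be separated there from stromal cells, and the cluster is called MC38 or stromal cells. Other regulatory T cell markers summed to between 2365 and 2857 CPM in the cells without a Foxp3 UMI, against between 6997 and 7555 CPM (Foxp3 included) in those with one, so the cells without a Foxp3 UMI were not free of regulatory T cell transcripts. In CD8 T cells Rara itself stood at 85.4 CPM for WT, at 78.5 for RARα-KO and at 191 for RARα-TG. The transcript that remains after the deletion is still counted, so this level does not check the deletion.

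Nt5e, the enzyme that makes adenosine, was the member that differed most between the genotypes among those with 20 or more UMIs in CD8 T cells. It lies on chromosome 9, from 88327609 to 88372089 (GRCm38, ENSMUSG00000032420). WT CD8 T cells held 23.7 CPM (19.9 to 28.1), RARα-KO ones 10.0 CPM (7.96 to 12.5) and RARα-TG ones 103 CPM (78.9 to 132). The 3 intervals did not overlap, with RARα-KO at the bottom and RARα-TG at the top. The log2 ratio of RARα-KO to WT was -1.24 (-1.66 to -0.83), and that of RARα-TG to WT was 2.12 (1.66 to 2.56). Nt5e was the 1 of 5 members past a 2-fold ratio in RARα-KO, where 5.35% of the 10479 genes with 20 or more UMIs were past it in either direction. In RARα-TG 2 of 5 members were past it, Nt5e and Ada, where 14.6% of 9516 genes were.

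The same order held for the share of CD8 T cells with an Nt5e UMI. WT had 13.3% (11.1 to 15.8), RARα-KO 5.45% (4.22 to 6.91) and RARα-TG 33.6% (25.0 to 43.1), at median depths of 5668, 5590 and 4680 UMIs per cell. With each cell thinned to 1000 UMIs, as the mean over all possible draws, WT fell to 2.94%, RARα-KO to 0.922% and RARα-TG to 9.69%. Over 20 single draws the shares ran from 2.26% to 3.80%, from 0.512% to 1.53% and from 4.50% to 12.6%, and these ranges did not overlap. MC38 or stromal cells of WT, which serve as the type with little Nt5e, gave 5.13% before thinning at a median of 29930 UMIs and 0.183% after it. Barcodes with too few UMIs to be cells held 11 Nt5e UMIs among 270078, or 40.7 CPM (20.3 to 72.9). Plasmacytoid-like dendritic cells of WT held none among 28 cells, where the floor of 3 UMIs stands at 16.5 CPM. The level of RARα-KO CD8 T cells was under that floor and under the free RNA level. WT CD8 T cells, at 23.7 CPM, were under the free RNA level too. The RARα-KO level was above the 2.36 CPM (1.13 to 4.34) of RARα-KO MC38 or stromal cells, whose median depth was 30676 UMIs against 5590. Free RNA makes up a smaller share of deeper cells. The free RNA level is a share of free RNA alone, and does not give how much of a cell's UMIs is free RNA. The 11 Nt5e UMIs came from barcodes ranked 45000 to 90000 by UMI total, while 1174 RARα-KO CD8 T cells held 81. The part of free RNA in the RARα-KO level was not tested.

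In CD4 T cells and macrophages Nt5e was lower in RARα-KO as well. Foxp3-negative CD4 T cells held 43.3 CPM in WT against 9.14 in RARα-KO, with 61.5 in RARα-TG, and gave a log2 ratio of RARα-KO to WT of -2.24 (-3.64 to -0.98). In Foxp3-positive cells the levels were 71.7, 12.3 and 47.6 CPM, and the log2 ratio of RARα-KO to WT was -2.55 (-4.07 to -1.31). T cells with neither CD4 nor CD8 UMIs gave 76.9, 9.81 and 100.2 CPM, with a log2 ratio of -2.97 (-4.64 to -1.68) for RARα-KO. Nt5e was the 1 of 3 members with enough UMIs that passed 2-fold in each of these RARα-KO comparisons, where 6.92%, 5.83% and 6.55% of genes did. Against WT, RARα-TG had log2 ratios of 0.51 (-0.38 to 1.42), -0.59 (-1.28 to 0.09) and 0.38 (-0.07 to 0.85) in the same 3 classes. The intervals all hold 0, so no difference of RARα-TG from WT was detectable in these classes at this depth. RARα-TG cells with neither CD4 nor CD8 UMIs stood near its CD8 T cells in level, at 100.2 against 103 CPM. No member was past 2-fold there, where 7.15%, 7.59% and 6.64% of genes were.

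Macrophages, which express no dLck-Cre by design, gave 90.3 CPM (67.4 to 118) of Nt5e for WT, 16.0 CPM (8.98 to 26.5) for RARα-KO and 56.9 CPM (31.1 to 95.4) for RARα-TG. The log2 ratio of RARα-KO to WT was -2.49 (-3.43 to -1.64). Summed T cell markers were at 689 CPM in RARα-KO macrophages, 156 in WT and 130 in RARα-TG, and all 8 of the markers were read in each. In macrophages with no T cell marker UMI and no clonotype (68 in WT, 92 in RARα-KO), a selection made after the values were seen, the ratio was -2.80 (-4.09 to -1.70). Rpl29 was lower in RARα-KO both in CD8 T cells (log2 ratio -3.30) and in macrophages (-3.11). It lies on chromosome 9 from 106428889 to 106431568, more than 5 Mb from Nt5e, while Rara lies on chromosome 11. Of 23 measured genes within 5 Mb of Nt5e, 2 were past 2-fold in RARα-KO CD8 T cells, and of 13 in macrophages 0 were, beside 5.35% and 9.66% of all genes. In RARα-TG CD8 T cells 6 of 20 such neighbours were past it, all lower, while Nt5e was higher, beside 14.6% of all genes. The study lists Nt5e, beside P2rx7 (values below), among the genes that RARα activates. In its cultured CD8 T cells retinoic acid raised Nt5e, and most of this rise was lost in RARα-deficient cells. The part that RARα, strain, tumor or position on the chromosome played in the Nt5e difference was not tested. Genotype, mouse and hashtag cannot be told apart.

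**Figure D1:**
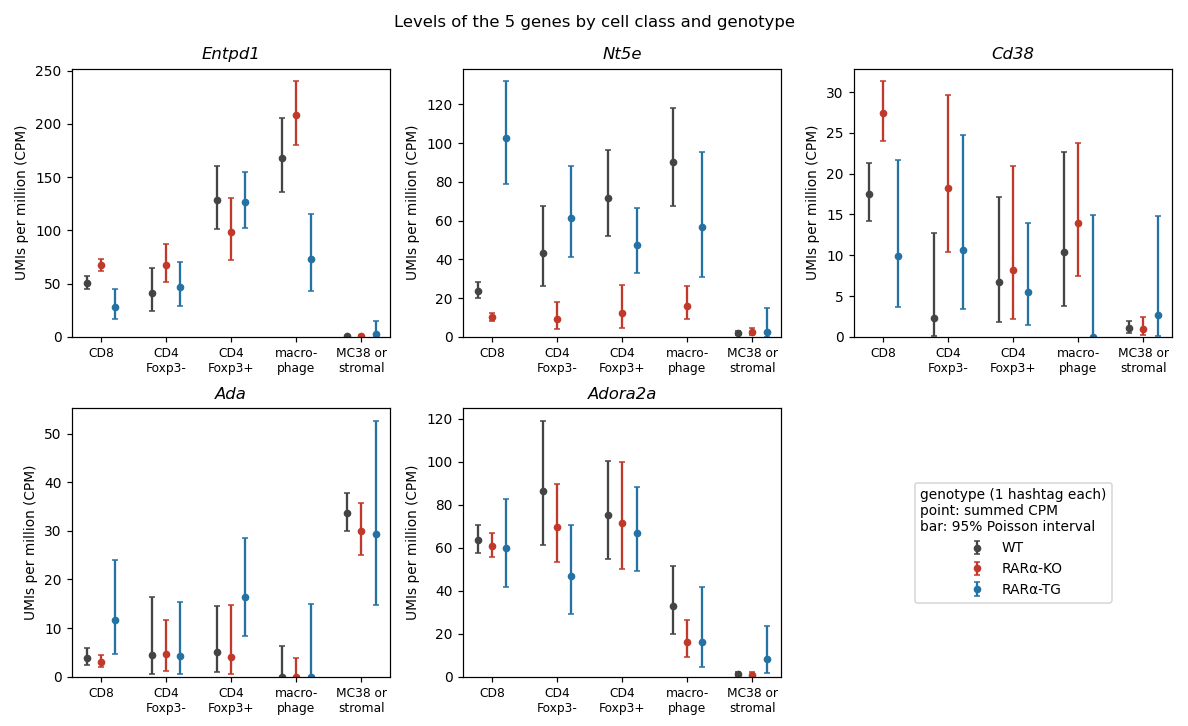
Levels of the 5 genes (CPM, vertical axis from 0) in 5 cell classes, with 1 point per genotype and bars for the 95% Poisson interval of the count. Nt5e of RARα-KO lies between 9.14 and 16.0 CPM in T cells and macrophages, below WT in each, and Ada is highest in MC38 or stromal cells.

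**Figure D2:**
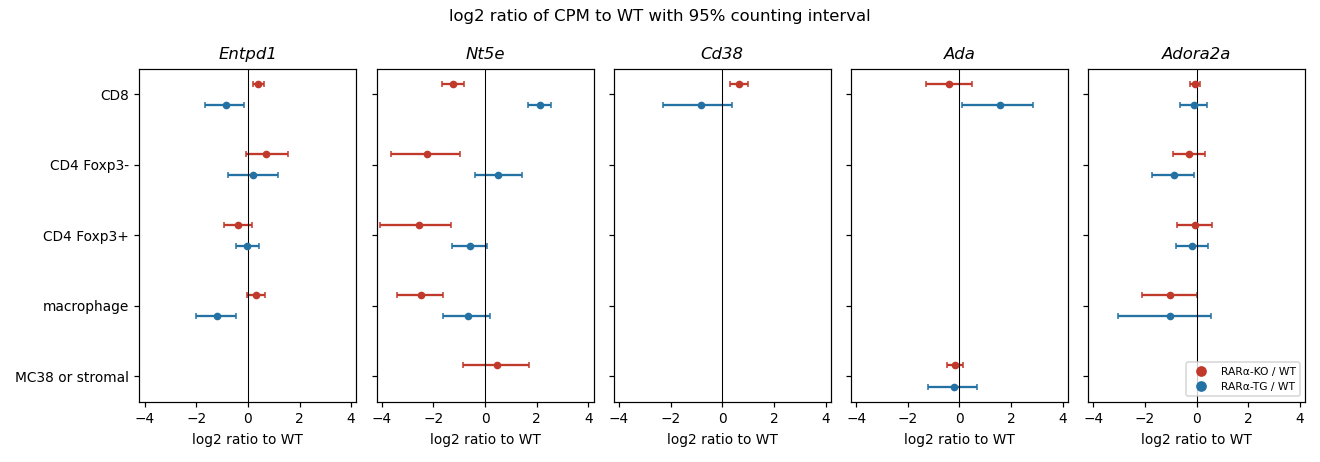
Log2 ratio of CPM to WT for RARα-KO and RARα-TG by cell class, with 95% counting intervals and a line at 0. Pairs with under 20 UMIs in both groups together are not drawn. The Nt5e ratios of RARα-KO lie left of 0 in T cells and macrophages, between -1.24 and -2.55.

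Nt5e was also compared within clusters of T cells, because the genotypes filled them unevenly. The cluster led by Gzmf, a granzyme gene, held 321 of the WT and 101 of the RARα-KO CD8 T cells. The cluster led by S1pr1, a receptor of circulating T cells, held 32 from WT, 100 from RARα-KO and 48 from RARα-TG. The cluster led by Serpine2 held 12 cells from WT, 291 from RARα-KO and 0 from RARα-TG, counted over all its cells with 1 hashtag. In the S1pr1 cluster WT stood at 101 CPM of Nt5e, RARα-KO at 9.94 and RARα-TG at 116, with log2 ratios to WT of -3.34 (-5.43 to -1.62) and 0.20 (-0.84 to 1.33). The interval of RARα-TG against WT holds 0 there, and that of RARα-KO does not. In the cluster led by Ccl5, a chemokine of effector T cells, the levels were 31.6, 6.28 and 98.2 CPM, and the ratios to WT were -2.33 (-3.41 to -1.35) and 1.64 (0.32 to 2.77). In the Gzmf cluster the levels of WT and RARα-KO were 21.9 and 14.4 CPM, a ratio of -0.61 (-1.57 to 0.25) that holds 0. In the cycling cluster led by Hist1h1a the 3 WT and 13 RARα-KO UMIs gave 1.42 (-0.44 to 3.87). The clusters were built from the most variable genes of the same cells, without T cell receptor genes, and their cell numbers are given as description.

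**Figure D3:**
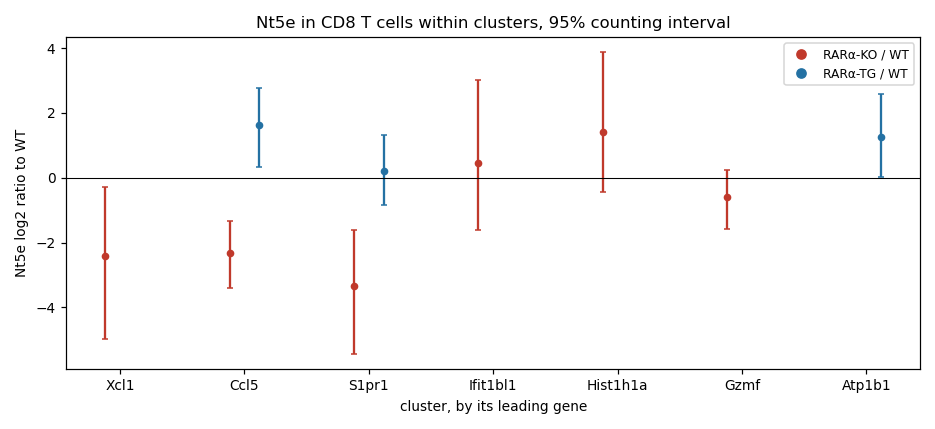
Nt5e log2 ratio to WT in CD8 T cells within single clusters, named by their leading gene, with 95% counting intervals; clusters with under 20 cells in either genotype are not drawn. RARα-KO is below WT in the Xcl1, Ccl5 and S1pr1 clusters, and its intervals hold 0 in the Ifit1bl1, Hist1h1a and Gzmf clusters.

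Entpd1, the enzyme a step before Nt5e, followed cell type more than genotype. It lies on chromosome 19, from 40612366 to 40741602 (ENSMUSG00000048120). In WT it stood at 168 CPM (137 to 205) in macrophages, 128 CPM (101 to 160) in Foxp3-positive CD4 T cells, 51.0 CPM (45.2 to 57.2) in CD8 T cells and 41.0 CPM (24.3 to 64.8) in Foxp3-negative CD4 T cells. MC38 or stromal cells had 0.347 CPM, on 3 UMIs. Neighbours in this order overlapped except between Foxp3-positive and CD8 T cells and at the last step to MC38 or stromal cells. Neutrophils, with 10, 37 and 10 cells, gave 403, 481 and 405 CPM for WT, RARα-KO and RARα-TG.

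Foxp3-positive CD4 T cells carried more Entpd1 than Foxp3-negative ones in WT and RARα-TG. The log2 ratio was 1.65 (0.89 to 2.48) in WT and 1.44 (0.76 to 2.18) in RARα-TG, where Entpd1 was the 1 of 3 members past 2-fold and 13.1% and 12.9% of genes were past it. In RARα-KO the levels were 98.3 and 67.4 CPM, a ratio of 0.54 (-0.04 to 1.12) that holds 0. The member past 2-fold in RARα-KO was Cd38, with 4 and 16 UMIs and a log2 ratio of -1.16 (-3.20 to 0.47), where 14.1% of genes were. With every clonotype weighted equally the Entpd1 ratio of RARα-KO was 1.21. The shares of Foxp3-positive cells with an Entpd1 UMI were 39.2% for WT, 35.4% for RARα-KO and 39.3% for RARα-TG, against 13.7%, 19.9% and 16.2% of Foxp3-negative cells. Thinned to 1000 UMIs, these became 12.4%, 9.38% and 11.2% against 3.72%, 4.78% and 4.62%. Nt5e, by contrast, had ratios of 0.73 (-0.08 to 1.59) for WT, 0.43 (-1.38 to 2.14) for RARα-KO and -0.37 (-1.12 to 0.39) for RARα-TG, whose intervals all hold 0.

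Between genotypes Entpd1 differed by less than 2-fold in T cells. CD8 T cells held 51.0 CPM in WT against 67.5 (62.0 to 73.4) in RARα-KO, while RARα-TG had 28.2 (16.4 to 45.2), the last on 17 UMIs. The log2 ratio of RARα-KO to WT was 0.41 (0.20 to 0.62), 0.996 without the Gzmf cluster, and 0.16 (-0.87 to 1.18), an interval that holds 0, in clonotypes of 1 cell. That of RARα-TG to WT was -0.85 (-1.65 to -0.15), but -0.091 without the Gzmf cluster, -0.10 as a mean over cells, -0.070 after thinning and 0.46 with every clonotype weighted equally. The low RARα-TG value in CD8 T cells was therefore not kept when cells or clonotypes were weighted equally. With the genotypes together, Entpd1 stood at 110 CPM in the Serpine2 cluster and at 85.7 CPM in the Gzmf cluster. The part of the Serpine2 cluster in the RARα-KO ratio was not tested. Macrophages held 168 CPM in WT, with 209 for RARα-KO and 73.1 for RARα-TG, and gave log2 ratios to WT of 0.31 (-0.05 to 0.68) and -1.20 (-2.02 to -0.47). The RARα-TG value rests on 18 UMIs from 35 cells.

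In macrophages 2 of 3 members were past 2-fold in each comparison with WT, Nt5e and Adora2a in RARα-KO and Entpd1 and Adora2a in RARα-TG, where 9.66% and 14.2% of genes were past it. Adora2a stood at 33.0 CPM in WT macrophages against 16.0 in RARα-KO and 16.3 in RARα-TG ones, on 19, 15 and 4 UMIs. The log2 ratios were -1.04 (-2.12 to 0.02) and -1.02 (-3.04 to 0.57). In macrophages without T cell markers the RARα-KO ratio was -2.20 (-3.97 to -0.73), since 5 of its 15 UMIs remained. Adora2a is read in T cells at higher levels, and the part of the T cell transcripts in its macrophage values was not tested.

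Cd38, the NAD-cleaving enzyme, was higher in RARα-KO CD8 T cells. It lies on chromosome 5, from 43868809 to 43912374 (ENSMUSG00000029084). WT stood at 17.5 CPM (14.2 to 21.3), RARα-KO at 27.5 CPM (24.0 to 31.3) and RARα-TG at 9.96 CPM (3.65 to 21.7). The log2 ratio of RARα-KO to WT was 0.65 (0.30 to 1.01), and that of RARα-TG, on 6 UMIs, was -0.81 (-2.29 to 0.36). Within the Gzmf cluster the levels of WT and RARα-KO were 25.0 and 60.6 CPM, a log2 ratio of 1.28 (0.74 to 1.81). With the genotypes together, Cd38 stood at 37.5 CPM in the Serpine2 cluster and at 34.1 CPM in the Gzmf cluster. The Serpine2 cluster was made up almost entirely of RARα-KO cells, and its part in the Cd38 ratio was not tested. Foxp3-negative CD4 T cells gave 1 Cd38 UMI in WT against 16 in RARα-KO, with 5 in RARα-TG, and the log2 ratio of RARα-KO to WT was 3.005 (0.32 to 8.39). Foxp3-positive cells gave 4 UMIs in each genotype. Outside the 5 classes, plasmacytoid-like dendritic cells had the most Cd38, at 77.0, 108.7 and 79.2 CPM on 14, 7 and 7 UMIs.

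Ada, the enzyme that removes adenosine, was highest in the MC38 or stromal cells of each genotype among the 5 classes. It lies on chromosome 2, from 163726571 to 163750239 (ENSMUSG00000017697). These cells held 33.7 CPM (29.9 to 37.8) for WT, 29.9 CPM (25.0 to 35.6) for RARα-KO and 29.4 CPM (14.7 to 52.5) for RARα-TG, and 54.2%, 55.5% and 47.4% of these cells had an Ada UMI. Their depth was high, and thinning to 1000 UMIs left 3.24%, 2.80% and 2.46%. The log2 ratios to WT were -0.17 (-0.48 to 0.14) and -0.20 (-1.22 to 0.66), and neither of the 2 members with enough UMIs in RARα-KO, nor the 1 in RARα-TG, was past 2-fold, where 3.88% and 17.6% of genes were. Macrophages held 0 Ada UMIs in all 3 genotypes, which allows up to 5.21 CPM for WT, 3.21 for RARα-KO and 12.2 for RARα-TG. CD8 T cells held 3.92 CPM in WT against 2.97 in RARα-KO, with 11.6 in RARα-TG, on 22, 24 and 7 UMIs. CD4 T cells gave between 4.09 and 5.003 CPM, on 2 to 4 UMIs, apart from Foxp3-positive cells of RARα-TG. These held 12 UMIs, or 16.3 CPM (8.44 to 28.5), which overlaps the interval of the MC38 or stromal cells of RARα-TG. In CD8 T cells the RARα-TG ratio to WT was 1.57 (0.10 to 2.84), but 1.34 (-0.25 to 2.69) with a stricter hashtag threshold.

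Adora2a, the receiver of adenosine, was the steadiest member across T cells. It lies on chromosome 10, from 75316877 to 75334792 (ENSMUSG00000020178). CD8 T cells of WT held 63.8 CPM (57.4 to 70.8), those of RARα-KO 61.0 CPM (55.7 to 66.6) and those of RARα-TG 59.7 CPM (41.8 to 82.7). The log2 ratios were -0.07 (-0.26 to 0.14) and -0.09 (-0.63 to 0.40), and both intervals hold 0. Foxp3-negative CD4 T cells gave 86.6, 69.7 and 46.7 CPM, with a log2 ratio of RARα-TG to WT of -0.89 (-1.72 to -0.10), an interval that excludes 0. Foxp3-positive cells gave 75.0, 71.7 and 66.7 CPM. Dendritic cells, with 21 and 27 cells, had 75.4 CPM in WT and 68.3 in RARα-KO, while MC38 or stromal cells had 1.04 and 0.707 CPM. In the 19 RARα-TG cells of that cluster 3 UMIs gave 8.01 CPM (1.65 to 23.4), beside summed T cell markers of 232 CPM against 20.6 in WT.

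Clonotypes, the groups of T cells that share a receptor, gave a further axis. WT CD8 T cells fell into 121 clonotypes of 1 cell and 19 of 10 or more, and RARα-KO into 94 and 24, while RARα-TG had none of 10 or more. The beta chain CDR3, which largely sets what a receptor binds, is shown for the 4 largest CD8 clonotypes of WT and of RARα-KO, because the values of the expanded cells rest on few receptors. The capitals mark the bases between the first 9 and the last 12. This is a cut by position that can include bases of the V and J segments. All 8 sequences differ.
WT clonotype 1, 64 cells, TRBV31: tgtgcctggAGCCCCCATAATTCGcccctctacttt
WT clonotype 2, 58 cells, TRBV31: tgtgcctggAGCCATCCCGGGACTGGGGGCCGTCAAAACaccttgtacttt
WT clonotype 3, 39 cells, TRBV5: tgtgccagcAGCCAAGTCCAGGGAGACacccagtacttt
WT clonotype 4, 36 cells, TRBV3: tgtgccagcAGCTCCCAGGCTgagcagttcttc
RARα-KO clonotype 1, 112 cells, TRBV16: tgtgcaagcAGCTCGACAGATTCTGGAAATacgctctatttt
RARα-KO clonotype 2, 75 cells, TRBV16: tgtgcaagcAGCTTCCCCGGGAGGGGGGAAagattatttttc
RARα-KO clonotype 3, 72 cells, TRBV3: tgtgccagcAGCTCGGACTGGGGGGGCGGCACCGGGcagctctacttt
RARα-KO clonotype 4, 66 cells, TRBV16: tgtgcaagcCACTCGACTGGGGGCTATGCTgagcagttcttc

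Nt5e varied between these clones within 1 genotype. The 4 WT clonotypes gave 42.8, 17.8, 54.7 and 10.6 CPM in the order shown, on 14, 6, 17 and 3 UMIs. The 4 RARα-KO clonotypes gave 3.95, 14.6, 10.1 and 6.36 CPM, on 4, 5, 4 and 3 UMIs, so the 2 ranges overlap. Over all clonotypes of 20 or more CD8 T cells, Nt5e ran from 7.33 to 54.7 CPM with a median of 16.6 in the 9 of WT, and from 0 to 28.9 CPM with a median of 7.25 in the 10 of RARα-KO. Entpd1 ran from 33.6 to 93.3 CPM (median 63.2) in WT and from 23.6 to 177 CPM (median 57.8) in RARα-KO. Cd38 had medians of 18.8 and 30.6 CPM. Cells of a clonotype share 1 founder, and clonotypes are not replicates of a genotype.

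Expanded CD8 clonotypes carried more Entpd1 than single cells in both WT and RARα-KO. In WT, clonotypes of 10 or more cells against clonotypes of 1 cell gave log2 ratios of 0.95 (0.27 to 1.72) for Entpd1, 1.60 (0.16 to 3.52) for Cd38 and -0.86 (-1.55 to -0.14) for Nt5e. Cd38 was the 1 of 4 members past 2-fold, where 11.0% of genes were. In RARα-KO the ratios were 1.13 (0.42 to 1.92) for Entpd1, -0.17 (-0.90 to 0.66) for Cd38 and 0.82 (-0.82 to 3.15) for Nt5e, the last on 3 UMIs in single cells. Entpd1 was the 1 of 4 members past 2-fold, where 9.83% of genes were. Single-cell clonotypes of RARα-KO had 32.2 CPM of Cd38 (18.8 to 51.6), near the 31.3 CPM of its clonotypes of 10 to 49 cells, while those of WT had 6.07 CPM (1.65 to 15.5). The Nt5e ratio of WT was -0.56 after thinning, and -0.41 (-1.28 to 0.50) without the Gzmf cluster, where its interval holds 0. The Cd38 ratio of WT without that cluster was 1.21 (-0.62 to 3.64).

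Within 1 size of clonotype the genotypes still differed in Nt5e. Single-cell clonotypes held 37.9 CPM of Nt5e in WT (25 UMIs) against 5.69 in RARα-KO (3 UMIs), with 110.6 in RARα-TG (49 UMIs), and gave log2 ratios to WT of -2.74 (-5.11 to -1.03) and 1.54 (0.82 to 2.30). Nt5e and Cd38 were the 2 of 4 members past 2-fold in RARα-KO, where 8.98% of genes were, and Nt5e the 1 of 3 in RARα-TG, where 8.73% were. The Cd38 ratio of RARα-KO was 2.41 (0.79 to 4.44), on 17 and 4 UMIs. Among clonotypes of 10 or more cells the RARα-KO ratios were -1.06 (-1.64 to -0.49) for Nt5e, 0.65 (0.19 to 1.12) for Cd38, 0.34 (0.07 to 0.61) for Entpd1 and 0.00 (-0.27 to 0.26) for Adora2a. Nt5e was the 1 of 5 members past 2-fold, where 5.63% of genes were.

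**Figure D4:**
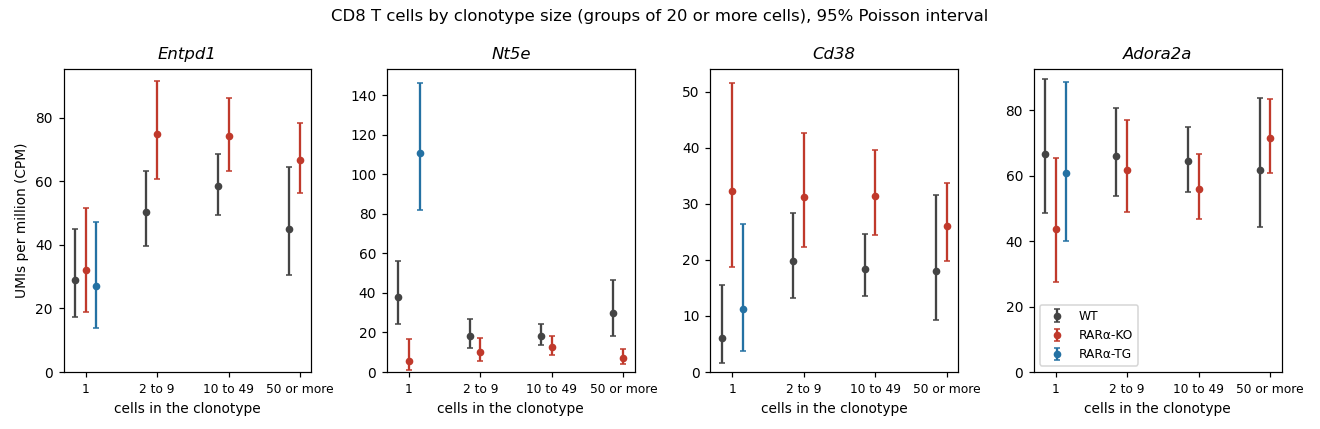
CPM of Entpd1, Nt5e, Cd38 and Adora2a in CD8 T cells by the number of cells in their clonotype, for groups of 20 or more cells, with 95% Poisson intervals. Entpd1 is lowest in single-cell clonotypes (28.8 CPM in WT, 32.2 in RARα-KO), and Nt5e of RARα-KO stays between 5.69 and 12.8 CPM at every size.

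Entpd1 and Cd38 were often read in the same CD8 T cells. A Cd38 UMI was found in 20.1% (14.6 to 26.5) of the Entpd1-positive cells of WT and in 6.74% (4.94 to 8.94) of the Entpd1-negative ones, and in 25.6% (21.0 to 30.7) against 10.2% (8.28 to 12.5) in RARα-KO. Entpd1-positive cells were also deeper, with medians of 7866 and 8204 UMIs against 5098 and 4901, and the part of depth in the overlap was not tested. Nt5e was found in 15.9% (11.0 to 21.9) of Entpd1-positive and 12.6% (10.1 to 15.3) of Entpd1-negative cells of WT, whose intervals overlap, and both steps of the ATP to adenosine route were read together in 30 of 842 cells. In RARα-KO the Nt5e shares were 9.57% (6.59 to 13.3) and 3.88% (2.69 to 5.41), which do not overlap, at the same unequal depths as above. The 12 Entpd1-positive cells of RARα-TG gave 58.3% (27.7 to 84.8), against 30.7% (21.9 to 40.7) of its Entpd1-negative ones.

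The other genes of the route were read from 7 fixed lists. Around NAD and ATP, 2 genes were read in T cells mostly in those that carry the RARα-KO hashtag, and for them too strain and genotype cannot be told apart. P2rx7, an ATP-gated channel that can kill T cells when they are exposed to NAD, was read 2 times in WT CD8 T cells, 85 times in RARα-KO ones and 1 time in RARα-TG ones. That is 0.356, 10.5 and 1.66 CPM, a log2 ratio of RARα-KO to WT of 4.88 (2.99 to 7.95). Art2b, the surface enzyme that attaches ADP-ribose from NAD to P2rx7, gave 0, 32 and 0 UMIs, so RARα-KO was at least 2.89 higher on the log2 scale, with the WT count set to the floor of 3 UMIs. Reads shared with its near-identical copy Art2a may be missing from this count. In the study's cultured CD8 T cells retinoic acid raised Art2b, and most of this rise was lost in RARα-deficient cells. The Art2b counts of the tumor cells here run the other way. P2rx7, which the study lists among the genes that RARα activates, was also higher in RARα-KO T cells here. In Foxp3-negative CD4 T cells P2rx7 had 0, 20 and 1 UMIs and Art2b 0, 12 and 0, and in Foxp3-positive cells P2rx7 had 0, 5 and 0 and Art2b 0, 4 and 0. Outside T cells P2rx7 did not differ in this way, with 8.33, 8.96 and 10.7 CPM in MC38 or stromal cells and overlapping intervals of 17.4, 32.1 and 36.6 CPM in macrophages. P2rx7 of RARα-KO was lower in clonotypes of 10 or more CD8 T cells than in those of 1 cell, by a log2 ratio of -1.46 (-2.48 to -0.33).

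In CD8 T cells of RARα-KO the ATP and ADP receptors had 1 of 5 measured genes past 2-fold higher (P2rx7) and 1 lower (P2ry14), beside 5.35% of all genes in either direction. P2ry14, a receptor of UDP-sugars, stood at 7.42 against 18.2 CPM (log2 ratio -1.29, -1.78 to -0.82). P2ry10, a lipid receptor of the same family, was at 84.0 against 128 CPM (-0.61, -0.76 to -0.45), and Panx1, a channel that lets ATP out, had a ratio of 0.10 (-0.07 to 0.28). Adenosine removal and transport had 0 of 8 genes past 2-fold, among them Dpp4 at 46.5 against 33.1 CPM (0.49, 0.23 to 0.75) and the nucleoside carrier Slc29a1 (0.29, 0.03 to 0.56). Pnp, which degrades inosine, and Ahcy had ratios of 0.14 (-0.05 to 0.33) and 0.09 (-0.09 to 0.26). Among the receptors Adora2b was at 2.10 against 4.63 CPM (-1.14, -2.11 to -0.20), on 17 and 26 UMIs. Of the 9 measured genes for NAD inside the cell 0 were past 2-fold, with Nmrk1, a nicotinamide riboside kinase, closest at 81.9 against 163 CPM (-0.99, -1.14 to -0.84). Of 9 cAMP genes 0 were, with Gnas at 0.17 (0.12 to 0.23), Pde4d at 0.32 (0.20 to 0.45) and Crem at -0.29 (-0.39 to -0.18). The median log2 ratios of the last 2 lists were 0.05 and 0.17, beside 0.01 over all 10479 genes.

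In RARα-TG CD8 T cells the cAMP list had 2 of 9 genes past 2-fold, both higher and both named after their values were seen, beside 14.6% of all genes in either direction. Pde3b and Pde4b, enzymes that break down cAMP, stood at 197 and 161 CPM against 93.0 and 78.6 in WT, log2 ratios of 1.09 (0.79 to 1.38) and 1.03 (0.70 to 1.35). Gnas, the stimulatory G protein, had 0.34 (0.21 to 0.46), and the median of the list was 0.22, beside 0.00 over 9516 genes. P2ry10 was at 237 CPM (0.89, 0.62 to 1.15) and Panx1 at 118 CPM (0.56, 0.18 to 0.93), with 0 of 3 genes of their list past 2-fold. Nmrk1 was lower here too, at 74.7 CPM (-1.12, -1.59 to -0.69), the 1 of 7 genes of the NAD list past 2-fold, a share close to the 14.6% of all genes.

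**Figure D5:**
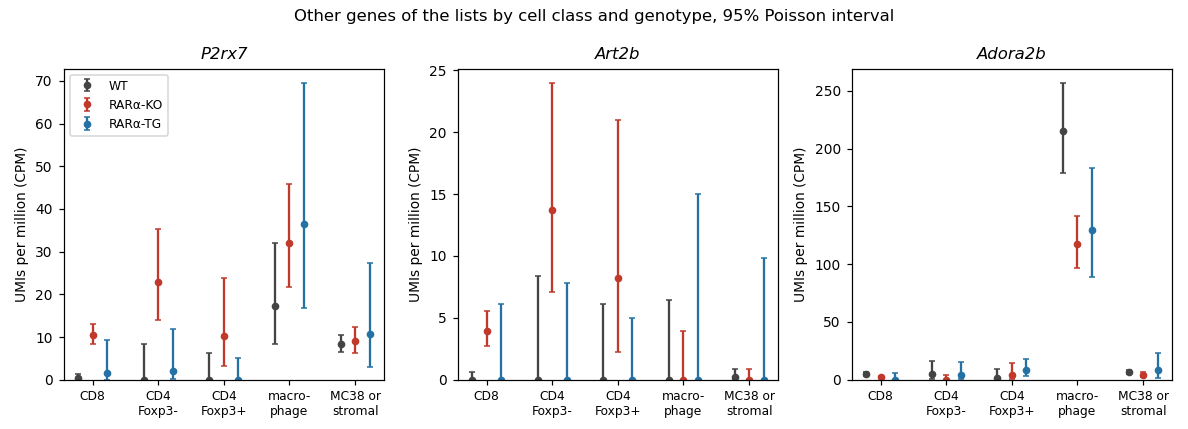
CPM of P2rx7, Art2b and Adora2b (vertical axes from 0) by cell class and genotype, with 95% Poisson intervals. P2rx7 and Art2b are read in RARα-KO T cells, at 10.5 and 3.96 CPM in CD8 T cells, and at 0 or a few UMIs in T cells of WT and RARα-TG. Adora2b is highest in macrophages.

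In macrophages the second adenosine receptor, Adora2b, stood at 215 CPM (179 to 257) for WT, 118 (96.7 to 142) for RARα-KO and 130.0 (88.9 to 184) for RARα-TG, with a log2 ratio of RARα-KO to WT of -0.87 (-1.25 to -0.49). Bst1, a relative of Cd38 that also cleaves NAD, was at 67.7 CPM in WT against 162 in RARα-KO, with 28.4 in RARα-TG, a ratio of RARα-KO of 1.26 (0.74 to 1.80). Bst1 was 1 of 4 genes past 2-fold, all higher, among 9 measured within 5 Mb of Cd38 in RARα-KO macrophages. In RARα-KO CD8 T cells 0 of 11 such neighbours were past it. The part of position on the chromosome in the Bst1 value was not tested. Of the 5 measured genes of adenosine removal and transport, 2 were past 2-fold higher in RARα-KO, beside 9.66% of all genes in either direction. These nucleoside carriers were Slc28a2, at 46.0 against 8.68 CPM (2.41, 1.07 to 4.10), and Slc29a3, at 41.7 against 17.4 CPM (1.27, 0.24 to 2.43). Pnp was at 520.0 against 352 CPM (0.56, 0.32 to 0.81), and Nampt, which makes NAD from nicotinamide, at 291 against 191 CPM (0.61, 0.28 to 0.94). Of the cAMP genes 0 of 9 were past 2-fold, with Pde4b at -0.59 (-0.87 to -0.31) and Crem at -0.49 (-0.87 to -0.12). The T cell transcripts in RARα-KO macrophages given above stand beside these values, and their part was not tested; Slc28a2 is also read in CD8 T cells, at 26.5 CPM in RARα-KO.

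Across the 14 groups of class and genotype with 20 or more cells, the genes whose log2(CPM + 10) ran most like each member were named among 11504 genes. For Entpd1 they were Fam49b and Chmp4b (r of 0.960 and 0.955), and for Adora2a Rac2, Klf13 and Cd37 (0.973, 0.972 and 0.971). For Nt5e they were Rgs10, Nras and Zswim6 (0.894, 0.878 and 0.849), and for Cd38 Armc7, Ifi214 and Sh2d3c (0.849, 0.837 and 0.829). For Ada they were Ndrg4, Gna11 and Csad (0.946, 0.941 and 0.937). The groups share 1 library and differ in depth, and MC38 or stromal cells stand apart from the immune classes in Ada, so these r values are descriptions.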

How the data were processed

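Per the labels and the study's methods, single cells were made into a 10x Genomics 5′ gene expression library with T cell receptor and hashtag reads, and the authors aligned them to mm10 with Cell Ranger (version 6.1.0 per the submitters' notes; the matrix header names 4). The deposited counts are UMI counts per gene and barcode for all 730308 barcodes, not normalized, with hashtag counts and a table of receptor contigs. Cells as filtered by the authors were not used here.

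Cells were called again from the counts: 2433 by total UMIs and 3152 of 3167 barcodes tested against the free RNA profile (false discovery rate 0.01), in all 5585 with a median of 4823 UMIs and 96.4% of gene UMIs. Genotypes were set by HTODemux of Seurat 5.3.0 (R 4.3.3) at quantile 0.99, which removed 426 doublets between genotypes and 234 cells without a hashtag. About 249 doublets within a genotype (5.05%) are estimated to remain. Clusters were made with scanpy 1.11.5 (2000 variable genes, 30 components, Leiden resolution 1.0). T cell clusters were those with a clonotype in over 50% of cells, and CD4, CD8 and Foxp3 classes were gated on UMIs of those genes; the other classes were named from marker lists.

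Counts were summed per class and genotype and given as CPM. With 1 sample per genotype no test was run, and intervals are exact Poisson, exact conditional binomial (ratios) and Clopper-Pearson (shares) at 95%. A ratio against 0 UMIs used a floor of 3. A gene was called past 2-fold only with 20 or more UMIs in both groups together. The ratio and interval code was checked on simulated counts. Named genes were the 5 members, up to 4 genes per list by UMI total and the 4 largest CD8 clonotypes of WT and RARα-KO. The members and the lists were chosen with earlier results of these data known. Gene positions are from RefSeq for GRCm38.p6. Art2a, 1 of the 63 listed genes, had no row of its own. Thinned values are means over all possible draws of 1000 UMIs per cell, since single random draws differed. Alternatives were other CPM denominators, thinning, stricter hashtags, other gates and weights, with their effect in the closing section. Of the genes most like each member, 1 is not reported here.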

Additional observations from a re-analysis of the deposited data

Results flagged for a closer look

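Reads of the 5 genes also appeared in cells that entered no comparison, above the limit that a count of 0 allows. The 234 cells without a hashtag, which belong to no genotype, held 4.60 CPM of Entpd1 (10 UMIs), 4.14 CPM of Nt5e (9 UMIs), 4.60 CPM of Cd38 (10 UMIs) and 21.2 CPM of Ada (46 UMIs). The 155 cells in clusters that could not be named held 34.7 CPM of Entpd1 (11 UMIs), 31.5 CPM of Nt5e (10 UMIs), 12.6 CPM of Cd38 (4 UMIs) and 34.7 CPM of Adora2a (11 UMIs).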

How the results depend on the processing

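No paired analysis was possible because each genotype is 1 sample and the labels give no replicate numbers. All values here are log2 ratios to WT in CD8 T cells unless said otherwise. The clonotypes of 1 cell, the macrophages without T cell markers, the comparison within clusters and the averaging of thinned draws were chosen after seeing the data. A first single draw of 1000 UMIs per cell and a second one gave different values, so the mean over all draws is used, with 20 single draws beside it. Over these the Nt5e ratio of RARα-TG ran from 0.39 to 2.38 and that of RARα-KO from -2.70 to -1.03, while Entpd1 of RARα-TG ran from -1.54 to 0.997.

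Entpd1 of RARα-TG was -0.070 after thinning, -0.10 as a mean over cells, -0.091 without the Gzmf, Gzmd and Gzme cluster and 0.46, with the sign reversed, with every clonotype weighted equally. That weighting gave 0.38 for Cd38 of RARα-TG. For RARα-KO it gave 0.71 for Entpd1, -2.26 for Nt5e, 1.40 for Cd38 and -0.42 for Adora2a, and 1.21 for Entpd1 of its Foxp3-positive against Foxp3-negative CD4 T cells. Without the Gzmf, Gzmd and Gzme cluster RARα-KO had 0.996 for Entpd1 and 1.07 for Cd38. In clonotypes of 1 cell RARα-KO had 0.16 for Entpd1, -2.74 for Nt5e, 2.41 for Cd38, -1.68 for Ada and -0.61 for Adora2a, and RARα-TG had -0.090 for Entpd1, 1.54 for Nt5e and 0.90 for Cd38. The cause of these shifts was not tested.

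Thinning lowers every share of cells with a UMI by its construction. Nt5e shares became 2.94%, 0.922% and 9.69% of CD8 T cells and 6.81%, 1.28% and 4.56% of macrophages, with the genotypes in the order WT, RARα-KO, RARα-TG. Entpd1 shares became 12.4%, 9.38% and 11.2% of Foxp3-positive and 3.72%, 4.78% and 4.62% of Foxp3-negative CD4 T cells, and Ada shares 3.24%, 2.80% and 2.46% of MC38 or stromal cells. With a minimum of 100 UMIs, the share of all genes past 2-fold was 2.53% for RARα-KO and 7.90% for RARα-TG in CD8 T cells. It was 8.80% and 7.81% between the CD4 classes of RARα-KO and RARα-TG, and 4.54% and 3.03% between clonotype sizes of WT and RARα-KO.

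The interval of a ratio came to hold 0 for Entpd1 of RARα-TG with T cells taken by receptor alone (-0.73), with a gate that includes Cd8b1 (-0.25), without the Gzmf cluster (-0.091) and in clonotypes of 1 cell (-0.090), and for Entpd1 of RARα-KO in clonotypes of 1 cell (0.16). The same happened for Ada of RARα-TG with stricter hashtags (1.34), without the Gzmf cluster (1.06) and in clonotypes of 1 cell (1.38), and for Nt5e (-0.41) and Cd38 (1.21) between clonotype sizes of WT without that cluster. Of the other comparisons with an alternative, 277 of the main results and 155 of the others stayed within the interval of the reported value (for shares of all genes, within 1.5 times of it), 67 of them identical to it. Counts under about 20 UMIs, as for Cd38 and Ada in RARα-TG, set the widest intervals, and the 113 CD8 T cells of RARα-TG limit every ratio to that genotype.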
